A study of Homo sapiens with 6 samples.

Results

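The DEAD- and DEAH-box RNA helicases are a family of enzymes named after 4 amino acids of the motif that binds and hydrolyses ATP. Members were the genes whose row on the array carried exactly 1 symbol beginning with DDX or DHX and a digit, without pseudogenes, antisense or divergent transcripts, DDX3Y and DHX58. This gave 49 genes, 34 DDX and 15 DHX, of 22465 named genes. For a gene with several rows the row with the highest mean over the 6 arrays was used, which mattered for DHX16 alone. The family was chosen by its symbols with the fall of DDX1 in the knockdown already known, and the rows were chosen by mean signal. The values of DDX1 in that comparison are therefore a description and carry no test of their own.

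The study measured RNA on Affymetrix whole-transcript arrays in cells labelled HepG2, an established line from a liver tumour. The control group was 3 samples of a stable line with the empty pLKO vector, and the other group was 3 samples of a stable line with a hairpin against SND1, shSND1-#1. Both lines had received 5-Fu (fluorouracil, a pyrimidine analogue used against tumours) at 6 µg/mL for 48 h. SND1 is an RNA-binding nuclease and coactivator found in several RNA-protein complexes. Untreated cells were not analysed here, so every value is a difference between lines under the drug. All knockdown samples carry the same hairpin and the control vector carries none. Loss of SND1, other effects of this hairpin and a difference between these stable lines cannot be told apart. Whether replicates came from separate cultures is not in the labels, so the p-values rest on a spread that may be technical only. Fewer transcripts per cell and fewer cells that hold them cannot be told apart in bulk RNA either.

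Helicases of this family use ATP to open short RNA duplexes or to strip proteins from RNA. DEAD-box members act locally on a few base pairs, while DEAH-box members move along a strand. Different members serve splicing, ribosome assembly, export, translation and decay of messenger RNA, and the sensing of foreign RNA. DDX1 is the helicase subunit of the complex that joins the exons of cleaved transfer RNA, and it is also found in cytoplasmic RNA granules.

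Signals are log2 values, so a difference of 1 is a 2-fold difference. The row annotated with SND1 and its intronic transcript SND1-IT1 fell to 35.6% of the vector signal (95% confidence interval 30.6 to 41.5), with a limma adjusted p of 0.0166 over all transcript clusters. Array medians lay between 3.58 and 3.73. Vector replicate 3 and knockdown replicate 1 differed with a standard deviation (SD) of 0.14 over the named genes, below the 0.147 to 0.193 of pairs within a group.

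The markers checked for the labelled cell type went partly against the label. HepG2 is known for strong expression of albumin, alpha-fetoprotein, fibrinogen and apolipoprotein B. Here ALB and AFP had mean signals of 1.83 and 1.5, FGA 1.92, FGB 1.69, FGG 1.36 and APOB 2.53, near the bottom of the scale, and TTR had 3.26. APOA1 had 5.20, SERPINA1 5.57 and APOA2 7.83. The 10 measured liver markers summed to 32.6 to 33.2 on vector and 31.9 to 32.9 on knockdown arrays. No marker was at 0, a value that these log2 signals do not reach. Of them 0 passed the adjusted threshold, and SERPINA1 was the 1 with an unadjusted limma p under 0.05 (5.92, 5.77 and 5.68 against 5.38, 5.38 and 5.31, change -0.43, SE 0.07, adjusted p = 0.0831).

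An epithelial marker also fell in the knockdown line. CDH1, which encodes E-cadherin, had 8.70, 8.57 and 8.47 in vector and 7.62, 7.61 and 7.66 in knockdown samples and fell by 0.95 (SE 0.07, limma adjusted p = 0.00954). The keratin genes KRT8 and KRT18, with means of 11.51 and 11.50, had changes of -0.19 and -0.23, groups that did not overlap and limma adjusted p-values of 0.209 and 0.17. EPCAM had a change of 0.00. Of the 4 markers 1 was called lower and 0 higher, with a median change of -0.21. At an unadjusted limma p under 0.05, 3 were lower and 0 higher. All 4 had means above the median of all named genes. Of named genes above it, 0.267% were called lower and 11.8% were lower at the unadjusted threshold. In 18.7% the knockdown arrays lay wholly below the vector arrays. Signals of the 4 markers summed to 39.4 to 39.7 on vector and 38.0 to 38.3 on knockdown arrays. The part of cell identity in the results was not tested.

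The DDX1 transcript was lower in the knockdown line. DDX1 had signals of 7.66, 7.67 and 7.60 on vector replicates 1 to 3 and of 6.63, 6.95 and 6.82 on knockdown replicates 1 to 3. The groups did not overlap, with a gap of 0.66 between their nearest arrays. The mean was 7.64 ± 0.04 in vector and 6.80 ± 0.16 in knockdown samples (SD, n = 3 each). The change was -0.85 (standard error, SE, 0.08), a 1.80-fold lower signal. This left 55.6% of the vector signal, with a 95% interval of 48.6 to 63.7. In the fit across all named genes only 2 genes had a more negative change. Rows with several symbols are outside this fit, among them the SND1 row, which had a change of -1.49. The limma adjusted p of 0.027 is one of the values by which DDX1 had come to notice. The call was lost without vector replicate 1 (adjusted p = 0.149), vector replicate 2 (0.188), knockdown replicate 1 (0.0821) or knockdown replicate 3 (0.149), while the change stayed between -0.76 and -0.92 whichever array was left out.

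The knockdown samples were also less alike in DDX1 than in any other helicase. DDX1 spanned 0.32 between the knockdown arrays, where the other 48 members spanned a median of 0.12 and at most 0.25. On the vector arrays it spanned 0.07, against a median of 0.13 for the others.

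**Figure D1:**
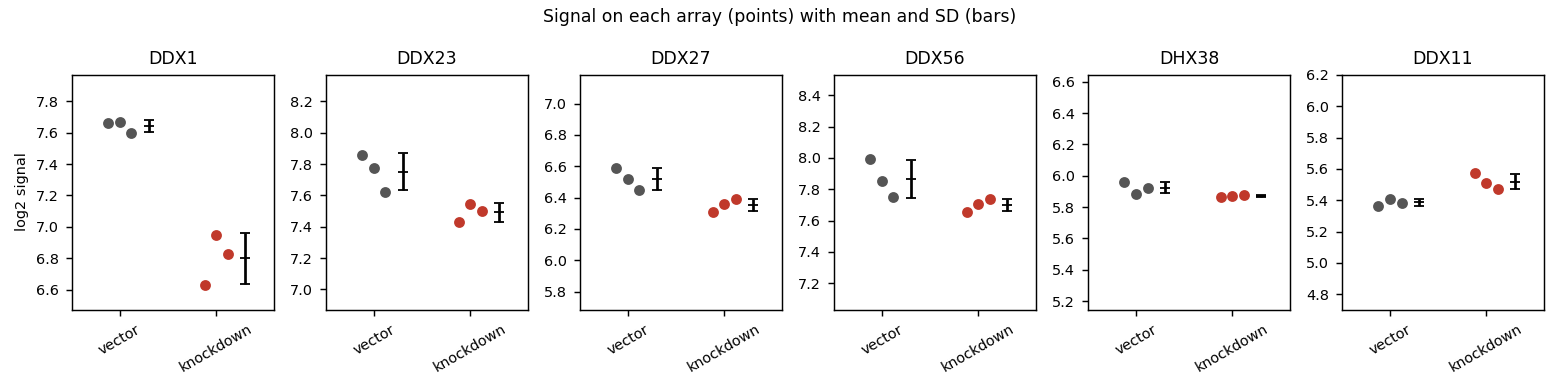
Signal of DDX1 and of the 5 other helicases above the median level whose groups did not overlap, on each array. Points are arrays, from replicate 1 on the left to replicate 3, bars give mean and SD of 3, and every panel spans 1.5 log2 units. DDX1 differed by 0.85 between groups and DDX23, the next, by 0.26.

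No other member had a measured change near that size. The 48 other helicases had changes from -0.26 (DDX23) to 0.13 (DDX11), with a median of -0.01 and an SD of 0.08 between genes. The median over all named genes was 0.01 and that over named genes above the median level was -0.02. Of the 49 members, 42 had a mean signal above the median of all named genes (4.83) and 7 below it, where such arrays understate changes. Among the 41 above it other than DDX1, the 95% interval of each excluded a change in signal of 1.5-fold in either direction, with bounds between -0.43 and 0.41. For 33 of the 41 the interval also excluded 1.2-fold. These intervals are for single genes and are not adjusted for their number. Dim members also had changes within 1.2-fold, but near the floor an interval on the signal does not limit the change of the transcript.

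In the fit across all named genes 1 helicase, DDX1, was lower and 0 were higher at a limma adjusted p under 0.05. Of all named genes, 0.138% were lower and 0.0312% higher by this rule. DDX1 was in the family from the outset, so nothing is read from its count. Adjusted p-values of the other 48 ran from 0.21 to 0.981. At an unadjusted limma p under 0.05, 2 of the other 48 were lower, DDX23 and DDX27, and 1 was higher, DDX11. Over all named genes that share was 7.34% lower and 4.85% higher. The knockdown arrays lay wholly below the vector arrays in 6 members, DDX1 included, and wholly above in 1. The shares were 12.2% and 2.04% of the family, against 11.6% and 6.33% of all named genes. Most members had signals above the median level, where shares of lower genes were larger. Of the 42 such helicases, 1 was lower and 0 higher at the adjusted threshold, against 0.267% and 0.0445% of all genes above that level. At an unadjusted p under 0.05, 3 were lower and 1 higher, against 11.8% and 4.62%. Groups did not overlap in 5 lower and 1 higher, against 18.7% and 5.96%. Fitting with array weights called 1653 of the 22465 named genes lower and 1559 higher. It called 4 of the other 48 helicases lower, DDX23, DDX60, DDX17 and DDX27, and nothing is read from that count. The remaining alternatives called none of the 48.

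**Figure D2:**
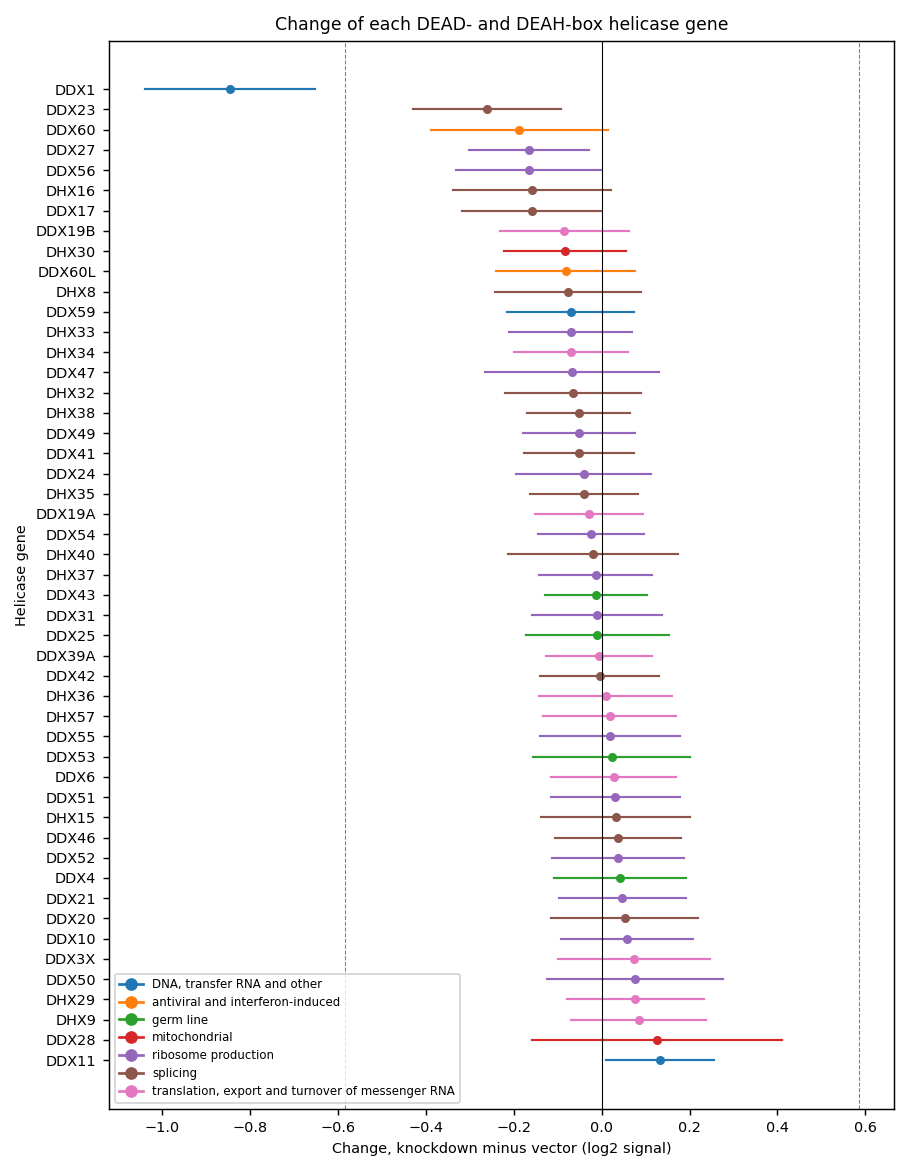
Change of each of the 49 helicases (knockdown minus vector, log2 signal) with its 95% confidence interval from limma, ordered by change and coloured by role. Dashed lines mark a 1.5-fold change, and all intervals but that of DDX1 lie between them. For the 7 members below the median level (the germ line genes, DDX60, DDX60L and DDX59) such arrays understate changes. Their intervals on the signal need not limit a change of the transcript.

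Array by array, each gene was set against its own vector mean. The median of the 48 was then -0.07, 0.02 and -0.01 on knockdown replicates 1 to 3, while DDX1 stood at -1.02, -0.70 and -0.82. The DDX1 values restate the difference by which it was noticed and add no support to it. The lowest of the 48 on every knockdown array was DDX23, at -0.32, -0.21 and -0.25.

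Small differences in the family were shared between arrays of different groups. Of the 48 others, 30 had their highest vector signal on replicate 1 and 35 their lowest on replicate 3. Of the knockdown arrays, replicate 1 gave the lowest signal for 32. Vector replicate 3 and knockdown replicate 1 differed by a median of 0.0411 in absolute size over the 48, with at most 0.49 (DDX28). DDX1 differed by -0.98 between the same pair of arrays, which again restates the difference by which it was noticed and adds no support. Over all named genes this pair was the most alike of the 15 pairs of arrays, while over the 48 helicases knockdown replicates 2 and 3 were closer still with a median of 0.038.

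**Figure D3:**
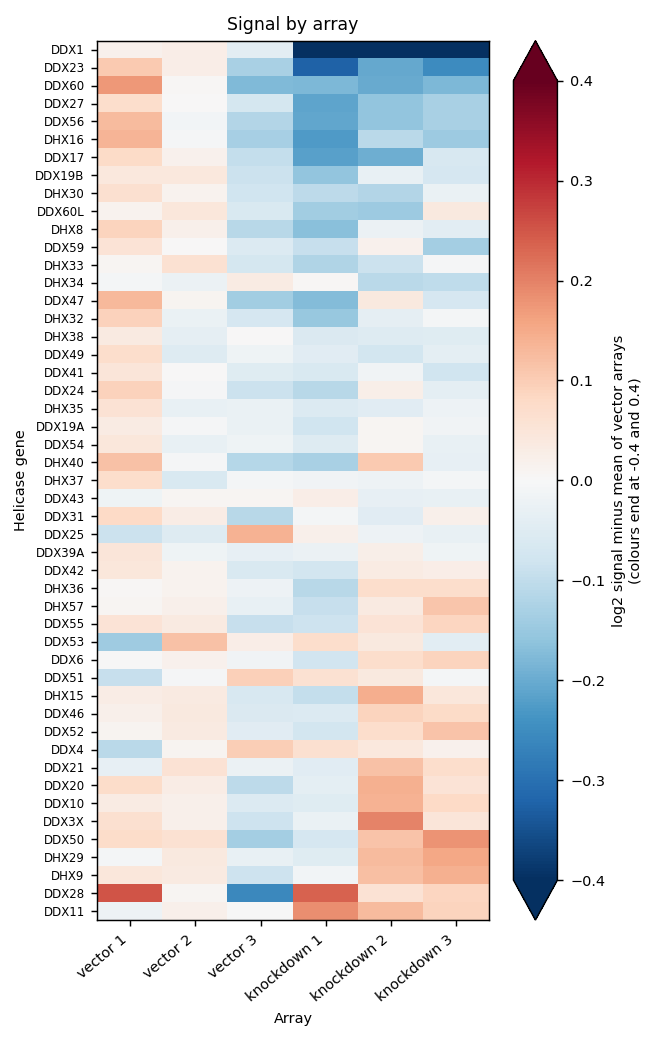
Signal of each helicase on each array as its difference from the mean of the vector arrays (log2, colour; colours end at -0.4 and 0.4, and the DDX1 values of the knockdown arrays, -1.02 to -0.70, lie past the lower end). Vector 3 and knockdown 1 share low values for many members. DDX1 is low on the knockdown arrays alone, the difference by which it was noticed.

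The promoters of DDX1 and of DDX23, the member with the next lowest change, are shown because they are the regions from which the transcripts at the low end of the family start. Each run holds the 250 bases before the annotated start in RefSeq on GRCh38.p14, and capitals mark matches on either strand to the motifs searched. DDX1 lies at chr2:15591618-15591867 on the plus strand and DDX23 at chr12:48852164-48852413 on the minus strand.
DDX1: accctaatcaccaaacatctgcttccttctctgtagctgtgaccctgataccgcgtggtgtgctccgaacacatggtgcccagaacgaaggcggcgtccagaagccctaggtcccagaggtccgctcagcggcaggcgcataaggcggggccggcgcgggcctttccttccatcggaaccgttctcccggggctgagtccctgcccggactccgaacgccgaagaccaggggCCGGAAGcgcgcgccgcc
DDX23: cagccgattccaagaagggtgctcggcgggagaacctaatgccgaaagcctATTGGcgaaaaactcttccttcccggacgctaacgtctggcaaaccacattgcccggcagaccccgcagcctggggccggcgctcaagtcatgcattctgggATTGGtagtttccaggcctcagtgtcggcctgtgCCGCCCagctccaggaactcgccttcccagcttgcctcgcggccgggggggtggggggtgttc
The motifs were the GC box (GGGCGG), the ETS core (CCGGAAG), the CCAAT box (CCAAT), the E-box (CACGTG), the TATA box (TATAAA) and the cyclic AMP element (TGACGTCA), with no overlap between them. The DDX1 window held 1 match, to the ETS core, 18 bases before the start. The DDX23 window held 2 CCAAT boxes, at 199 and 97 bases, and 1 GC box at 63 bases. Windows were found for 46 of the 49 genes, 59 windows in all since some genes have several starts. The ETS core was in 27.1% of these windows and in 8.52% of the 35116 windows of all genes. The GC box was in 55.9% against 42.6%, CCAAT in 45.8% against 32%, the E-box in 13.6% against 6.34%, the cyclic AMP element in 8.47% against 1.65% and the TATA box in 3.39% against 10.7%. The windows of the family had a median GC content of 60.8%, against 58% for all windows. The background was not matched for GC content or signal level, so these shares are not read as traits of the family. A match of letters is not a binding site, and no binding was measured. The 16 members with the ETS core had changes across the family's range, from DDX1 and then DDX56 (-0.17) and DHX16 (-0.16) to DDX11 (0.13). Any relation of a motif to a change was not tested.

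Values for the remaining members are given by role to account for the whole family. Those outside the rule for named genes were added with their values known. Helicases listed here under splicing comprised 13 genes, of which DHX32 and DHX40 were placed with less certainty. They had 10 negative and 3 positive changes, a median of -0.05 and 0 past the adjusted threshold. DDX23, the human counterpart of yeast Prp28, which helps to exchange U1 for U6 at the 5′ splice site, had signals of 7.86, 7.78 and 7.62 in vector and 7.43, 7.55 and 7.50 in knockdown samples. Its groups did not overlap, but knockdown replicate 2 lay only a little below vector replicate 3. The change was -0.26 (SE 0.07, limma adjusted p = 0.21). DDX17, a cofactor of transcription, splicing and microRNA processing, had 8.90, 8.84 and 8.73 against 8.60, 8.63 and 8.76. These overlapped, and the change was -0.16 (SE 0.07, limma adjusted p = 0.416).

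DHX16, the counterpart of yeast Prp2, which activates the assembled spliceosome, had a change of -0.16 (SE 0.08). Its 8 rows, most of them copies of the locus on alternative haplotypes of chromosome 6, had changes of -0.16 to -0.14. They are not 8 measurements, since the rows share sequence and held only 6 distinct sets of values. DHX38, the counterpart of yeast Prp16, which remodels the spliceosome after the first splicing step, had 5.96, 5.89 and 5.92 against 5.86, 5.87 and 5.87. Its groups did not overlap although the change was only -0.05 (SE 0.05, limma adjusted p = 0.708). DHX8, which releases spliced messenger RNA, had -0.08 and DHX15, which takes apart spliceosomes, 0.03. The branch-site helicase DDX46 had 0.04, the U2-associated DDX42 0.00, DDX41 -0.05, and DDX20, a subunit of the SMN complex that assembles small nuclear ribonucleoproteins, 0.05. DHX35, DHX32 and DHX40 had -0.04, -0.07 and -0.02.

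Ribosome production was the largest group, with 15 members, 9 negative and 6 positive changes, a median of -0.01 and 0 past the adjusted threshold. DDX27, a nucleolar helicase needed to process the 47S precursor of ribosomal RNA, had signals of 6.59, 6.52 and 6.45 in vector and 6.31, 6.36 and 6.39 in knockdown samples. The groups did not overlap, and the change was -0.17 (SE 0.06, limma adjusted p = 0.319). DDX56, a nucleolar helicase of the large subunit pathway, had 7.99, 7.85 and 7.75 against 7.66, 7.71 and 7.74. Its groups were separated by 0.01 and the change was -0.17 (SE 0.07, limma adjusted p = 0.414).

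DDX21, which links transcription by RNA polymerase I to early processing, had 8.52, 8.61 and 8.53 against 8.51, 8.67 and 8.63, which overlapped, with a change of 0.05 (SE 0.06). Its paralogue DDX50 had 0.08. The other 11, all with roles in the nucleolus or in subunit assembly, lay between -0.07 (DHX33) and 0.06 (DDX10): DDX24, DDX31, DDX47, DDX49, DDX51, DDX52, DDX54, DDX55 and DHX37 lay in between.

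Helicases of messenger RNA export, translation and turnover numbered 10, with 4 negative and 6 positive changes, a median of 0.01 and 0 past the adjusted threshold. DDX3X, which helps ribosomes to scan structured leaders, had 8.78, 8.73 and 8.63 in vector and 8.68, 8.91 and 8.76 in knockdown samples. The groups overlapped and the change was 0.07 (SE 0.07, limma adjusted p = 0.726). DDX19B, which releases messenger RNA at the nuclear pore, had the largest change of this group in absolute size, -0.08 (SE 0.06, limma adjusted p = 0.633). Its near-identical neighbour DDX19A had -0.03, and signals of the pair may not be fully separate. DDX6, which represses translation and promotes decapping in processing bodies, had 0.03. DHX29, needed for scanning through stable structures, had 0.08, DHX36, which unwinds G-quadruplexes, 0.01, and DHX9, a nuclear helicase that unwinds long duplexes, 0.08. DHX34, a factor of nonsense-mediated decay, had -0.07, the export helicase DDX39A -0.01 and DHX57 0.02.

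The small groups held few clear signals. DHX30 and DDX28, both needed to assemble the mitochondrial ribosome, had changes of -0.08 (SE 0.06) and 0.13 (SE 0.12). DDX28 had 5.03, 4.78 and 4.52 in vector and 5.01, 4.83 and 4.86 in knockdown samples, the widest vector spread of the family. DDX60, an interferon-induced factor of antiviral defence, had 3.35, 3.18 and 3.00 against 2.99, 2.97 and 2.99. Its groups differed by less than 0.01 at their nearest, and its change was -0.19 (SE 0.09, limma adjusted p = 0.444). The related DDX60L had -0.08 (SE 0.07). The germ line genes DDX4 (the VASA helicase), DDX25, DDX43 and DDX53 had mean signals of 1.94, 2.16, 1.85 and 1.56, so low that no change could be read, with measured differences of 0.04, -0.01, -0.01 and 0.02.

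DDX11, a DNA helicase of sister chromatid cohesion, had the highest change, with signals of 5.37, 5.41 and 5.38 in vector and 5.57, 5.51 and 5.47 in knockdown samples. Its groups did not overlap and the change was 0.13 (SE 0.05, limma adjusted p = 0.371). DDX11 has near-identical copies, so its signal is uncertain. A row shared with its pseudogene DDX12P had a change of 0.11 (SE 0.06). DDX59, grouped here with DDX1 and DDX11 for want of a surer role, had -0.07.

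**Figure D4:**
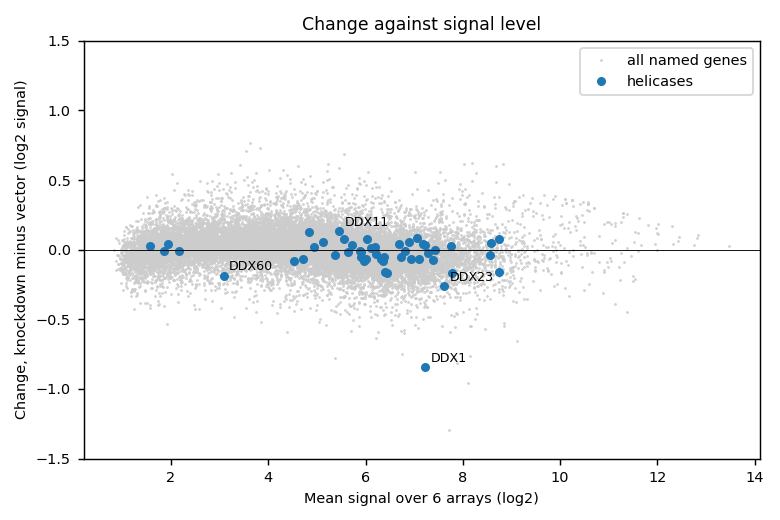
Change (knockdown minus vector, log2 signal) against mean signal over 6 arrays for 22465 named genes (grey) and the 49 helicases (blue). DDX1, at a mean of 7.22 and a change of -0.85, lies far below the other helicases at any signal level.

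The partners of DDX1 differed little between the groups. Its complex was listed together with relatives of the subunit FAM98B and an activator of the ligase. Of this list, 6 genes were measured and 0 passed the adjusted threshold in either direction (0 at an unadjusted limma p under 0.05). Changes ran from -0.06 to 0.09, with 95% intervals within -0.17 and 0.26. Over all named genes the unadjusted shares were 7.34% lower and 4.85% higher, so a count of 0 among so few genes says little. RTRAF, a core subunit, had 7.34, 7.40 and 7.31 in vector and 7.33, 7.53 and 7.36 in knockdown samples, which overlapped (change 0.06, SE 0.07). The core subunit FAM98B had 0.06 (SE 0.06) and its relatives FAM98A and FAM98C had 0.09 (SE 0.07) and -0.06 (SE 0.05). Groups of FAM98C did not overlap (6.76, 6.74 and 6.73 in vector, 6.69, 6.69 and 6.68 in knockdown samples), while those of the rest of the list did. Knockdown arrays lay wholly below vector arrays in 11.6% of all named genes. C2orf49, which encodes the subunit ashwin, had 0.01, and ZBTB8OS, which encodes the ligase activator archease, 0.00. The ligase gene RTCB was not analysed here. Of the enzyme that cuts the transfer RNA intron before the ligase acts, 4 genes were measured and 0 passed the adjusted threshold. TSEN34, its catalytic subunit for the 3′ cut, had 0.06, and the associated RNA kinase gene CLP1 had -0.14 (SE 0.08).

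The genes next to DDX1 on chromosome 2, by order in RefSeq among measured protein-coding genes, were TRIB2 (-0.08), LRATD1 (0.01) and NBAS (-0.08) on the lower side and MYCN (0.14), CYRIA (-0.27) and RAD51AP2 (-0.10) on the upper side. None of the 6 passed the adjusted threshold. NBAS, which serves vesicle transport and nonsense-mediated decay, lies next to DDX1 on the lower side and had overlapping groups (5.89, 5.81 and 5.65 against 5.67, 5.63 and 5.83). MYCN, the transcription factor gene that is amplified together with DDX1 in some neuroblastomas, had 4.41, 4.48 and 4.65 against 4.77, 4.66 and 4.53, which overlapped. CYRIA, a regulator of actin remodelling, had 4.94, 4.93 and 4.85 against 4.60, 4.61 and 4.70. Its groups did not overlap, and its change of -0.27 (SE 0.06) had a limma adjusted p of 0.136.

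RNA helicases with other names were a comparison list of 21 measured genes, with 0 lower and 1 higher at the adjusted threshold and a median change of -0.03. The 1 was DICER1, the microRNA-producing nuclease with a helicase domain (0.51, SE 0.06, limma adjusted p = 0.0421), whose rise was known when the list was made. EIF4A3, the DEAD-box protein of the exon junction complex, had -0.15 (SE 0.08), and SNRNP200, the helicase that unwinds U4 from U6, -0.13 (SE 0.06). These 2 were picked with their values known. At an unadjusted limma p under 0.05 the list held 4 lower and 1 higher. The 4 were MOV10 (-0.22), UPF1 (-0.22), DQX1 (-0.16) and SKIC2 (-0.14), and the 1 was DICER1. All named genes gave 7.34% lower and 4.85% higher, and those above the median level gave 11.8% and 4.62%. Genes of this list and the next 2 lay mostly above that level (median means 6.48, 6.76 and 6.18). The second pair of shares is thus the nearer background for all of these lists. Cofactors and binding partners of DEAD-box helicases gave 0 of 21 past the adjusted threshold, 3 lower and 0 higher at an unadjusted limma p under 0.05, and a median of -0.05. The 3 were RBM8A (-0.28, SE 0.08), GLE1 (-0.18) and CASC3 (-0.16). EIF4G2, a scaffold of translation initiation, had 0.09 and CNOT1, the scaffold of the deadenylase complex that activates DDX6, had -0.04. The G-patch proteins that activate DEAH-box helicases gave 0 of 13, with 2 lower and 0 higher at an unadjusted limma p under 0.05 and a median of -0.05. The 2 were GPATCH1 (-0.17) and CMTR1 (-0.16). Of the 13, RBM5, a splicing regulator gene, and AGGF1 had -0.07 and -0.02. Genes named for an unadjusted p under 0.05 were added with their values known.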

How the data were processed

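Gene expression was measured in 6 samples labelled HepG2. The deposited values are log2 signals that the authors made with RMA (robust multi-array average: background correction, quantile normalization and summarisation of probes), per the submitters' processing notes (version and software: not given in the sources used here). In all, the table held 67528 transcript clusters. GEO's platform annotation gave exactly 1 symbol for 23781, and the row with the highest mean per gene left 22465 genes. No detection calls or scanner files were used, and the number of arrays limits the precision.

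Groups came from the sample titles. Knockdown minus vector was fitted by limma 3.58.1 (lmFit, then eBayes; R 4.3.3) on a design of group alone, and p-values were adjusted by Benjamini-Hochberg over all named genes (threshold 0.05). The members, role lists, partner lists and tests were chosen with earlier results of these data known. Named by rule were DDX1, members past the threshold, up to 5 falls and 5 rises above the median level with groups not overlapping, the 3 with the highest mean, and in each role the highest mean and the largest change. Also named were the next 2 lower members, the whole ligase list, and for other lists the genes past the threshold or the 2 with the highest mean, and 3 neighbours on each side of DDX1. Sequences came from RefSeq (GRCh38.p14). On simulated data with 22465 genes, the fit recovered 82% of 100 genes lowered 1.5-fold and 97% of 100 lowered 2-fold, with 8 false calls. Both sets were lowered together, were drawn from genes above the median level and had noise independent between arrays. With fewer changed genes the adjusted threshold is harder to pass, so these shares are not the sensitivity reached in the real data. Alternatives were a replicate block, array weights, other normalizations, floors, filters, rows and feature sets, a variance trend, and leaving out each array. Figures were drawn with matplotlib 3.10.9.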

Additional observations from a re-analysis of the deposited data

How the results depend on the processing

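DDX1 kept a negative change in all 16 alternatives, from -0.92 to -0.76, and passed the adjusted threshold in 9 of them (limma adjusted p from 0.00185 to 0.188). With all transcript clusters tested (adjusted p = 0.116) or a floor at the 30th percentile (0.159), its change stayed -0.85 and the number of helicases called lower went from 1 to 0. Leaving out single arrays gave 0 to 1 helicases called lower and changes of DDX1 between -0.92 and -0.76, and 2 of the 6 such fits called it. Array weights, whose estimation stopped before it converged, gave 5 helicases called lower, among 1653 of all 22465 named genes. No helicase was called higher in any alternative. Same-numbered arrays had correlations of deviations from their group means of -0.30, 0.00 and -0.39. Deviations within a group of 3 sum to 0, which ties these correlations to each other. They therefore cannot decide whether the numbers pair the samples. With the replicate block, DDX1 had -0.85 (limma adjusted p = 0.133) and 0 helicases were called lower. The cause of these differences was not tested.

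Over all named genes, 31 were lower and 7 higher. Lower and higher counts were 187 and 84 without the dimmest 40% of genes, 113 and 10 for protein-coding genes, 106 and 27 with a variance trend and robust fitting, 49 and 14 with renewed quantile normalization, and 14 and 1 with median centring. They were 1653 and 1559 with array weights, 3 and 0 with all clusters tested, 1 and 0 with the replicate block, and 0 and 0 with the floor. Without single arrays they ran from 0 to 29 lower and 0 to 6 higher. The 15 other named helicases gave 237 values over these alternatives. Of these, 232 moved by less than the larger of the vector and knockdown SDs of the gene. A further 4 passed the threshold (with array weights) and 1 moved further (DDX60, raised to the floor on every array). Without the dimmest genes, 44 of the 49 helicases were tested.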

Other observations

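The helicase genes DDX5 and DDX39B lay only on rows that carry more than 1 symbol and so were not members. The row shared by DDX5, a cofactor of transcription and splicing, and 2 microRNA genes had signals of 9.63, 9.63 and 9.59 in vector and 9.56, 9.72 and 9.67 in knockdown samples (change 0.03, SE 0.07). The 8 rows that carry DDX39B, an export helicase, with other symbols had changes of -0.07 to -0.04. These rows share sequence and are not separate measurements.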
